A study of Mus musculus with 4 samples.

Results

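The 2 independent derivations of one induced hepatocyte-like cell model, iHep-1 and iHep-2, were set against each other in gene expression, using every array of the series (4 arrays of 4). Induced hepatocyte-like (iHep) cells are cells of another type that have been converted towards hepatocytes in culture. All 4 samples were iHep cells of C57BL/6 mice, derived from cells the labels call MDFs, a term they do not expand. Each derivation, which the design text calls an independent experiment, was profiled once in 2D culture and once in 3D culture, so each group held 2 arrays: iHep-1 in 2D and in 3D, and iHep-2 in 2D and in 3D. The titles of both 2D samples carry a plus sign that no source used here explains, and it coincides with culture. The agents used for conversion, the passage and the sex of the cells are not stated either. The comparison asked which differences between derivations held in both cultures, with culture as a block, and not what 3D culture changed. The p-values of the fit with this block weigh a gene's mean difference against the gap between its differences in 2D and 3D. That gap is moderated by a prior over all genes. Because each derivation stands for 1 experiment, profiled once per culture, these p-values do not measure the spread over repeated derivations or repeated arrays.

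Hepatocytes secrete most plasma proteins, detoxify drugs and steroids, make bile acids and clear ammonia through the urea cycle. A network of transcription factors that includes Hnf4a, the Foxa proteins and nuclear receptors such as Nr1h4 keeps these genes on. Converted cells can carry genes of the starting cell or of related endodermal tissues such as bile duct and gut. Hox and other patterning genes record the body position a cell came from and often persist in culture.

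Each sample was read on a 1-colour Agilent array, and levels are log2 units relative to the 75th percentile of the array's processed signal, so 0 is that percentile. Differences are iHep-2 minus iHep-1, relative to the other genes of each array, and 1 log2 unit is a 2-fold change. The 75th percentile lay between 399 and 616 intensity units, 23061 to 24413 of 41174 probes were well above background on each array, and no spot was saturated. All arrays lay on 1 slide and had 1 scan time, so neither differed between derivations. Of 10 hepatocyte markers, Tf had no probe under its name. The other 9 were above background on every array, with summed levels of 1319 to 2386 times the 75th percentile. Of 10 fibroblast markers, 3 to 7 were, with summed levels of 4.97 to 8.15, and the ranges of the derivations overlapped for both lists. Summed levels of leukocyte, melanocyte, neural and skeletal muscle markers were at most 0.453 on any array, of endothelial markers at most 1.60 and of keratinocyte markers at most 1.625. Intestinal markers summed to 16.8 to 43.5 and smooth muscle markers to 8.69 to 10.2, both above the fibroblast sums. Biliary sums are given below. In such bulk samples fewer cells of a type and less RNA per cell cannot be told apart.

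Genes were tested where a probe was well above background on at least 2 arrays, which gave 16448 genes. The 2D and 3D arrays of iHep-1 correlated at r = 0.970 across genes and those of iHep-2 at 0.939, while the derivations correlated at 0.9335 within either culture. The difference between derivations in 2D correlated with that in 3D at r = 0.661 across genes, which are not independent replicates. A limma fit with culture as a block called 141 genes higher in iHep-2 (0.857% of those tested) and 162 lower (0.985%) at a Benjamini-Hochberg adjusted p under 0.05. These 303 genes (1.84%) differed in the same direction in both cultures. That follows from the fit, which counts a gap between the cultures as error, and is not a separate result. Not all of these genes rest on signal in both derivations. Of the higher genes 50 were not well above background on either iHep-1 array, and of the lower genes 72 were not on either iHep-2 array, while 67 and 61 were measured on all 4 arrays. Over the 128 measured on all 4 arrays, the difference averaged over the cultures was at least 2.60 log2 units, with a median of 3.704. For the 122 above background on neither array of a derivation only a bound of the fold is known, of which the lowest was 1.52 and the median 8.55. Without a test, and with signals below background included, 842 genes were at least 2-fold higher in iHep-2 in both cultures (5.12%), 944 were at least 2-fold lower in both (5.74%), and 235 differed by that much in opposite directions (1.43%).

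The calls are close to their threshold, since the smallest adjusted p was 0.0399 (limma), and large but unequal differences in 2D and 3D, such as those of Afp, did not reach it. Without the block 21 and 33 genes were called, all of them among the 141 and 162, with 2081 genes at an unadjusted p under 0.05 against 2922 with the block. With 3 arrays the block leaves no residual degrees of freedom, so fits that left out 1 array also left out the block. Each of these 4 fits called 0 genes higher and 0 lower, with 1226 to 2661 genes at an unadjusted p under 0.05. A gene that missed the threshold was therefore not shown to be alike in the derivations. Standard errors (SE) below come from this fit, with n = 2 arrays per derivation. Where a derivation had a gene well above background on neither array, the fold is a lower bound against the array's lowest signal above background. Where 1 array of a derivation was not above background, the difference in that array's culture is against background, and such arrays are named beside the values.

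**Figure D1:**
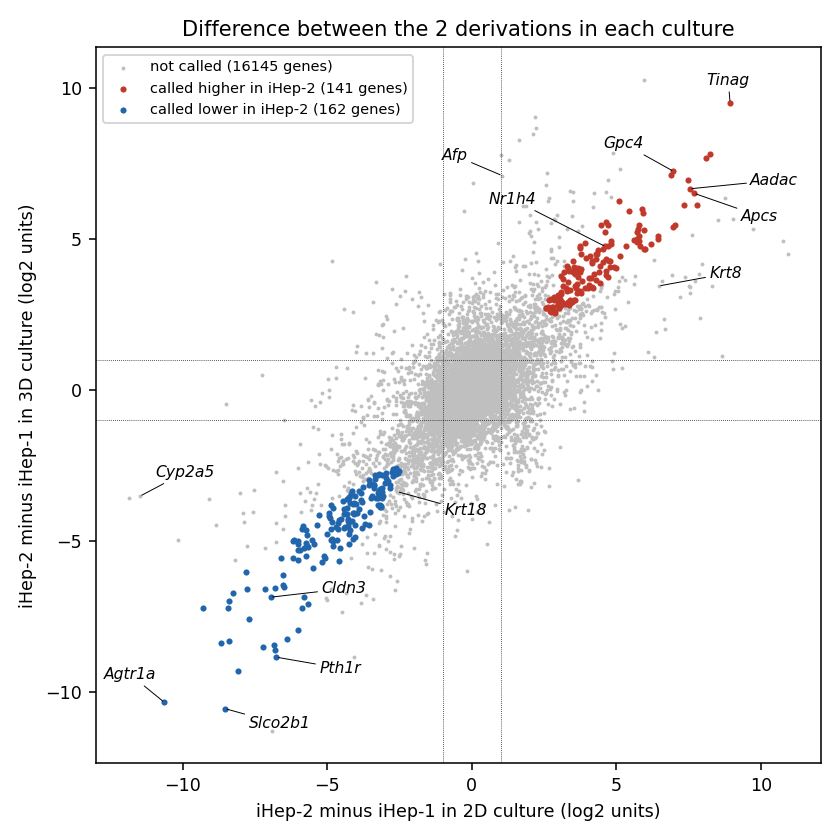
Each point is 1 of 16448 genes, placed by its difference between derivations (iHep-2 minus iHep-1, log2 units) in 2D culture on the x axis and in 3D culture on the y axis. Dotted lines mark 1 log2 unit. The 141 red and 162 blue genes called by limma lie along the diagonal, because the fit counts a gap between the cultures as error. Genes such as Afp and Cyp2a5, with unequal differences, lie off it and were not called.

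The largest differences in favour of iHep-2 combined liver genes with genes of basement membrane and adhesion. Ranked by the smaller of their differences in 2D and 3D, the first 15 included Tinag, Bst1, 3110039M20Rik, Gpc4, Pcdh7, C730027H18Rik, Aadac, Apcs, a probe named only NAP048198-1, Fgf21, Slc22a28, Mab21l4 and Afap1l1. The fit called 12 of the 15, but not Fgf21 and Afap1l1, and 7 were not above background on either iHep-1 array. Tinag (probe at chr9:76799672-76799731, mm9), a basement membrane protein known from kidney tubules, stood at 0.69 in 2D and 3.001 in 3D in iHep-2, with no iHep-1 array well above background, at least 233-fold higher (limma adjusted p = 0.0399). Gpc4, a cell surface heparan sulfate proteoglycan, was measured on all 4 arrays, at -5.92 in 2D and -5.87 in 3D in iHep-1, and 1.05 and 1.38 in iHep-2. Both iHep-2 arrays were far above both iHep-1 arrays, a difference of 7.11 ± 0.23 log2 units (SE) or 138-fold (adjusted p = 0.0399), and a second Gpc4 probe gave 6.61. Pcdh7, a protocadherin, was above background in iHep-2 alone, where it was at least 42.6-fold higher (adjusted p = 0.0399). Bst1, an ectoenzyme that uses NAD, stood at -5.57 in 2D and -8.12 in 3D in iHep-1, and 2.67 and -0.29 in iHep-2, with iHep-1 above background in 2D only (adjusted p = 0.0399). Fgf21, a hormone of liver, stood at -4.07 in 2D and -8.39 in 3D in iHep-1, and 1.895 and 1.89 in iHep-2. The 3D array of iHep-1 was not above background, so the exact size of its difference in 3D is not known, and it was not called (adjusted p = 0.0943).

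The largest differences in favour of iHep-1 included 3 organic anion transporters and 2 receptors for circulating peptides. The first 15 were Agtr1a, Slco2b1, Snhg18, Trps1, Kctd12, Slco1c1, Mtarc1, Smgc, Casp1, Fam171b, Fibin, Cldn3, Slco3a1, TC1620752 and Pth1r. All but Fibin were called, and 8 of the 15 were not above background on either iHep-2 array. The probes of TC1620752 (chr9:110625106-110626122, mm9) and Pth1r (chr9:110624846-110624905) are neighbours on the same strand. They gave -6.80 and -8.60 and -6.76 and -8.84, and whether they report 1 transcript was not tested. Agtr1a (probe at chr13:30474638-30474697, mm9), the angiotensin II receptor, stood at 2.298 in 2D and 2.74 in 3D in iHep-1 and was above background on neither iHep-2 array, at least 342-fold lower in iHep-2 (limma adjusted p = 0.0399), and its second probe gave -6.91. Pth1r, the receptor for parathyroid hormone, was measured on all 4 arrays, at 4.39 in 2D and 5.88 in 3D in iHep-1, and -2.36 and -2.96 in iHep-2, a 222-fold difference (-7.797 ± 0.61 log2 units, adjusted p = 0.0452). Trps1, a zinc finger repressor of the GATA type, was at least 82.7-fold lower in iHep-2, and 2 further probes gave -5.72 and -5.19. Casp1, the protease that activates interleukin-1 beta, stood at 2.89 in 2D and 3.13 in 3D in iHep-1, and -6.42 and -4.06 in iHep-2, with the 2D array of iHep-2 not well above background (adjusted p = 0.0443). In these genes every iHep-1 array was above every iHep-2 array.

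Among transcription factors of the liver, 26 of 28 listed genes were tested. Of these 3 were called higher in iHep-2 and 0 lower by limma, with 8 and 3 at an unadjusted p under 0.05. By 2-fold or more in both cultures, 6 were higher (23.1%) and 3 lower (11.5%), against 5.12% and 5.74% of all genes. The list's median difference was 0.298 in 2D and 0.303 in 3D, against -0.05 and 0.0036 over all tested genes. Foxa3 (probe at chr7:19599053-19599112, mm9), a pioneer factor of endoderm, stood at -4.73 in 2D and -3.96 in 3D in iHep-1, and -0.94 and -0.34 in iHep-2. Both iHep-2 arrays were higher, by 3.71 ± 0.23 log2 units or 13.1-fold (limma adjusted p = 0.0403). Nr1h4, the bile acid receptor FXR, stood at -3.004 in 2D and -1.300 in 3D in iHep-2 and was above background on neither iHep-1 array, at least 14.6-fold higher (adjusted p = 0.0399). Hhex, a homeobox factor needed for liver bud outgrowth, stood at 0.55 in 2D and -0.198 in 3D in iHep-1, and 4.62 and 3.53 in iHep-2, a 14.9-fold difference (adjusted p = 0.0409), and its second probe gave 4.15. The xenobiotic receptors Nr1i2 (PXR) and Ahr gave 1.69 and 2.61 and 4.33 and 2.67 and were not called.

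The factors at least 2-fold lower in iHep-2 were Onecut1, Onecut2 and Gata6, none of them called. Onecut2, which acts in biliary and hepatic development, stood at 3.403 in 2D and 2.41 in 3D in iHep-1, and 0.16 and 0.37 in iHep-2 (limma adjusted p = 0.0951), and its 2 further probes gave -3.56 and -2.68. Gata6, an endodermal zinc finger factor, gave differences of -1.42 in 2D and -1.996 in 3D (adjusted p = 0.103). For Onecut1 the probes disagreed, since the brighter gave -1.37 ± 0.22 and the other 1.76. Probes also disagreed for Hnf4a, the central hepatic regulator. The brightest stood at 2.01 in 2D and 1.198 in 3D in iHep-1, and 0.93 and 1.17 in iHep-2, a difference of -0.55 ± 0.36 (adjusted p = 0.558), whereas 2 further probes gave 1.802 and 3.17, so its direction is not settled. Cebpa, a factor of hepatocyte maturity, gave -0.32 and 1.06 and was not called, Foxa2 was above background on 1 array of each derivation, and Foxa1 was not tested.

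Promoters of called genes were searched for letters that HNF1, FOXA, HNF4 or FXR factors are known to bind. The 10 motifs were chosen after the gene values were known. Both strands were searched in the 300 bases from 250 before to 50 after each RefSeq gene start (GRCm38.p6). GTTAAT, the HNF1 half-site, occurred in 16 of the 101 called-higher genes that have such an entry (15.8%), in 8 of 109 called-lower genes (7.34%), in 659 of 10938 tested genes (6.02%) and in 7.10% of all 32851 promoters in the table. Those 16 were 0610039H22Rik, Anks4b, Cdhr2, Cga, Cldn18, Cyp2c40, F2, Ftcd, Gpr39, Habp2, Nr1h4, Pkhd1, Ppp1r9a, Pzp, Scel and Sox11. The other 9 motifs each overlap GTTAAT or are FOXA, HNF4 or FXR letters, and they were rarer. The first 10 bases of the HNF1 palindrome, with any base at its centre, occurred in 4 called-higher genes and 1 called-lower gene (0.399% of all promoters), and its first 11 bases in 1 and 0 (0.140%). The whole palindrome occurred in 0 and 0, also with its middle relaxed (0.00913% and 0.0396%). TGTTTAC occurred in 3 and 4 (3.65%), TATTTAC in 4 and 5 (3.04%), TTGTTTAC in 0 and 0 (1.23%), CAAAGTCCA in 1 and 1 (0.475%) and the FXR inverted repeat in 0 and 0 (0.00913%). These are counts of letters and not of bound sites, and the difference in shares was not tested. The 4 promoters below belong to a regulator, a plasma protein and 2 enzymes described here, each shown 5′ to 3′ on the gene's strand from 250 bases before the gene start through the first 20 bases of the gene. Capitals mark GTTAAT or its reverse complement.
Nr1h4: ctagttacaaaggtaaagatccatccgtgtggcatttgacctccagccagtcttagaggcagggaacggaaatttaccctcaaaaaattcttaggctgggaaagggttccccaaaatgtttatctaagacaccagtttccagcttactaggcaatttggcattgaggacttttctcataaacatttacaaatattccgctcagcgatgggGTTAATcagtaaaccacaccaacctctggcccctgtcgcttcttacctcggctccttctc
F2: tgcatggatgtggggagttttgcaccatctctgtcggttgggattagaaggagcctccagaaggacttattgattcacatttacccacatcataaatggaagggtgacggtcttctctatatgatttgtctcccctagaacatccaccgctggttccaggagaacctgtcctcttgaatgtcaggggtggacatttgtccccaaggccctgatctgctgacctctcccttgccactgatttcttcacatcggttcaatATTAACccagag
Ftcd: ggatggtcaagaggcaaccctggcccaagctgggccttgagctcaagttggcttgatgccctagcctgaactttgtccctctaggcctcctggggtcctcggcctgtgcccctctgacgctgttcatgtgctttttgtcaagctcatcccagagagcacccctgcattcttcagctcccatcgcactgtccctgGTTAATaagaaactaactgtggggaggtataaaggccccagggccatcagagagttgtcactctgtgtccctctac
Cyp2c40: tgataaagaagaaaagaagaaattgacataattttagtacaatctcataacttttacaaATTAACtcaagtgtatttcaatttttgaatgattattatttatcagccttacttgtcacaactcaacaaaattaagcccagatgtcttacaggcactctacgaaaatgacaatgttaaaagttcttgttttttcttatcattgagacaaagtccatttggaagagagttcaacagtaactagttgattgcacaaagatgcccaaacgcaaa
In GRCm38.p6 these are chr10:89506639-89506908 (minus strand) for Nr1h4, chr2:91636438-91636707 (minus) for F2, chr10:76575398-76575667 (plus) for Ftcd and chr19:39812795-39813064 (minus) for Cyp2c40. Relative to the gene start the letters begin at -40 in Nr1h4, 8 in F2, -56 in Ftcd and -191 in Cyp2c40.

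Over 10 lists of liver genes together, 430 genes were tested. Of these 16 were called higher in iHep-2 and 9 lower, where the shares called among all tested genes were 0.857% and 0.985%. The 2-fold counts over both cultures were 78 higher (18.1%) and 49 lower (11.4%), against 5.12% and 5.74% of all genes. These all-gene shares are the background for the counts of each liver list below. The pooled median was -0.33 in 2D and 0.54 in 3D, so liver genes as a whole did not favour the same derivation in both cultures. What held in both was a set of genes on each side.

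Of 61 tested plasma protein genes, 2 were called higher by limma, Apoh and F2, and 0 lower, with 19 and 10 at an unadjusted p under 0.05. In all, 14 were at least 2-fold higher in both cultures (23%) and 7 at least 2-fold lower (11.5%). Albumin (Alb) was near the top of the scale on every array, at 9.11, 8.94, 8.82 and 9.57 in the order iHep-1 2D, iHep-1 3D, iHep-2 2D and iHep-2 3D, and the derivations overlapped. Transthyretin (Ttr) and apolipoprotein A-I (Apoa1) overlapped as well, with differences of -1.28 and 0.91 and of -0.41 and 0.803. Prothrombin (F2) stood at 3.78 in 2D and 5.04 in 3D in iHep-1, and 7.05 and 8.31 in iHep-2. Its difference was almost the same in both cultures, 3.27 ± 0.22 log2 units or 9.67-fold (limma adjusted p = 0.0432). Apoh, a phospholipid-binding plasma glycoprotein, stood at 0.84 in 2D and 4.37 in 3D in iHep-1, and 5.96 and 8.82 in iHep-2, a 27.6-fold difference (adjusted p = 0.0403). Gc, the vitamin D carrier, was higher in iHep-2 by 7.201 in 2D and 3.099 in 3D, with an adjusted p of 0.165. On the other side, Serpina3k, a serine protease inhibitor, stood at 4.73 in 2D and 6.32 in 3D in iHep-1, and -3.17 and 1.97 in iHep-2 (adjusted p = 0.108), and its second probe gave -6.02. Coagulation factors F5 and F12 gave -2.11 and -2.52 and -2.43 and -1.54, and neither was called.

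Of 13 acute phase genes, only Apcs was called. Serum amyloid P (Apcs) stood at -5.59 in 2D and -4.61 in 3D in iHep-1, and 2.102 and 1.91 in iHep-2, 138-fold higher in iHep-2 (limma adjusted p = 0.0402). Serum amyloid A genes differed the other way, since Saa1 gave -3.55 and -1.71 and Saa2 -5.26 and -2.45, the latter with the 2D array of iHep-2 not above background, and adjusted p of 0.15 and 0.149. Of 15 fetal liver genes limma called 0, with 4 higher and 1 lower at an unadjusted p under 0.05. In both cultures 5 were at least 2-fold higher in iHep-2 (33.3%) and 1 at least 2-fold lower (6.67%). Alpha-fetoprotein (Afp), the fetal counterpart of albumin, stood at 7.198 in 2D and 0.91 in 3D in iHep-1, and 8.24 and 8.02 in iHep-2. The 3D array of iHep-1 was low and the other 3 arrays high, so its difference of 1.04 in 2D and 7.11 in 3D rests on that array (adjusted p = 0.368). Igf2bp2, an RNA-binding protein of fetal growth, gave 1.77 and 1.53 and Cd24a, a surface protein of progenitors, 2.96 and 1.997. Dlk1, a hepatoblast marker, gave -1.61 and -5.63, with the 3D array of iHep-2 not above background, and no fetal gene among these passed the test.

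Genes of drug metabolism differed in both directions. Of 77 tested P450 and other phase I genes, 3 were called higher in iHep-2 (Cyp2c40, Aadac, Ces1b) and 4 lower (Cyp2b9, Cyp2b10, Cyp2b13, Cyp2j6). By 2-fold or more in both cultures, 20 were higher (26%) and 13 lower (16.9%). Cyp2c40, which oxidises arachidonic acid, stood at 0.54 in 2D and 2.58 in 3D in iHep-1, and 3.92 and 6.53 in iHep-2, a 12.7-fold difference (limma adjusted p = 0.0437). Its family members Cyp2c39 and Cyp2c55 gave 3.82 and 5.45 and 5.05 and 3.42, with the 2D array of iHep-1 not above background for either, and were not called. The carboxylesterase Ces1b stood at -4.41 in 2D and 0.64 in 3D in iHep-1, and 1.41 and 5.41 in iHep-2, 39.3-fold higher (adjusted p = 0.0432). Aadac, a microsomal deacetylase, stood at -8.12 in 2D and -0.499 in 3D in iHep-1, and -0.57 and 6.17 in iHep-2, with the 2D array of iHep-1 not above background (adjusted p = 0.0399). All these stood higher in 3D than in 2D in both derivations.

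The Cyp2b genes, targets of the receptor CAR, went the other way. Cyp2b9 stood at -0.22 in 2D and 5.71 in 3D in iHep-1, and -4.53 and 1.61 in iHep-2, with a difference of -4.21 ± 0.23 log2 units or 18.5-fold (limma adjusted p = 0.0399), and its second probe gave -3.45. Cyp2b10 and Cyp2b13 gave -4.25 and -4.36 and -4.29 and -4.26, with an adjusted p of 0.0399 for both. The 2D array of iHep-2 was above background for neither, so their size in 2D is not known, and a second Cyp2b13 probe gave -2.15. Cyp2j6, an epoxygenase named because it completes the count, was at least 2.29-fold lower. Cyp2a4 and Cyp2a5, steroid and coumarin hydroxylases, had much larger but unequal differences, -11.87 in 2D and -3.56 in 3D and -11.48 in 2D and -3.505 in 3D, and adjusted p of 0.245 and 0.243. Cyp2a5 stood at 6.24 in 2D and 7.86 in 3D in iHep-1, and -5.24 and 4.36 in iHep-2, so its 2D array of iHep-2 was the low one. Genes within the Cyp2a, Cyp2b, Cyp2c and Ugt2b families are similar in sequence, and how far their probes share signal was not tested. Cyp3a11, the main mouse Cyp3a enzyme of adult liver, gave -1.82 and 1.22 and overlapped between derivations.

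Of 48 conjugation genes, Ugt2b5, Ugt2b37 and Sult1c2 were called higher and 0 lower, with 13 and 6 at an unadjusted p under 0.05 (limma). By 2-fold or more in both cultures, 10 were higher (20.8%) and 6 lower (12.5%). Sult1c2, a sulfotransferase, stood at -5.06 in 2D and -4.54 in 3D in iHep-1, and -0.71 and 0.11 in iHep-2, a 22.7-fold difference (limma adjusted p = 0.0399). The glucuronosyltransferases Ugt2b5 and Ugt2b37, added here because they complete that count, gave 3.73 and 3.301 and 3.09 and 3.25. Ugt2b34, Ugt2b35, Ugt2b36 and Ugt2b38, of the same family, were each at least 3.46 log2 units higher in both cultures and were not called. The 2D array of iHep-1 had none of these 6 Ugt2b genes above background. On the other side, the estrogen sulfotransferase Sult1e1 gave -4.49 and -7.33 and nicotinamide N-methyltransferase (Nnmt) -3.83 and -7.04, with adjusted p of 0.0856 and 0.111. The 2D array of iHep-2 was not above background for Sult1e1, nor the 3D array for Nnmt.

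Among 27 hepatic transporters, 2 were called lower in iHep-2 and 0 higher, with 7 and 5 at an unadjusted p under 0.05 (limma). By 2-fold or more in both cultures, 3 were lower (11.1%) and 5 higher (18.5%). Slco2b1, an organic anion uptake carrier, stood at 1.88 in 2D and 2.98 in 3D in iHep-1 and was above background on neither iHep-2 array, at least 321-fold lower (limma adjusted p = 0.0416). Slco3a1, of the same family, stood at 0.99 in 2D and 0.85 in 3D in iHep-1, and -5.84 and -7.59 in iHep-2, with the 3D array of iHep-2 not above background (adjusted p = 0.0424). Slco1c1, a thyroxine carrier outside this list, was at least 60.9-fold lower. Slco1b2, the hepatocyte-restricted member, was above background in iHep-2 only, at -4.41 in 2D and 1.33 in 3D (adjusted p = 0.352). The half-transporters Abcg5 and Abcg8, which together export sterols, gave 2.73 and 4.39 and 2.11 and 4.59, while Abcb4, the canalicular phospholipid exporter, gave -2.04 and -2.96. None of these 4 was called, and each had the same direction in both cultures.

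In nitrogen metabolism, 3 of 52 tested genes were called higher and 1 lower. By 2-fold or more in both cultures, 11 were higher (21.2%) and 8 lower (15.4%). Cps1, which makes carbamoyl phosphate for the urea cycle, stood at 0.22 in 2D and 2.81 in 3D in iHep-1, and 3.09 and 5.42 in iHep-2. The 2D array of iHep-2 was barely above the 3D array of iHep-1, and within each culture iHep-2 was higher by 2.87 and 2.61 (6.68-fold, limma adjusted p = 0.0473). Nags, the enzyme that makes the activator Cps1 needs, differed the other way, at 2.23 in 2D and 2.96 in 3D in iHep-1, and -2.21 and -1.13 in iHep-2, 19.2-fold lower in iHep-2 (adjusted p = 0.0402), and its second probe gave -4.14. Otc, the next enzyme of the cycle, gave 2.01 and 5.81 and is named after its values were seen, and Arg1, the last, gave -0.16 and 3.13. Ftcd, which breaks down histidine, stood at -3.53 in 2D and 0.51 in 3D in iHep-1, and 2.42 and 5.19 in iHep-2, 39.9-fold higher (adjusted p = 0.0452). Agxt, which detoxifies glyoxylate, gave 3.63 and 3.51 (adjusted p = 0.0416), with the 2D array of iHep-1 not above background. Lower in iHep-2 without a call were Cdo1, which opens cysteine breakdown (-5.29 and -2.12), Bhmt, which remethylates homocysteine (-4.54 and -1.43), and Tat, which breaks down tyrosine (-1.81 and -1.29).

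In sugar metabolism 1 of 28 genes was called. Ppp1r3g, a subunit that directs a phosphatase to glycogen, was at least 6.42-fold lower in iHep-2 (limma adjusted p = 0.0416). Slc2a2, the glucose carrier GLUT2, was above background in iHep-2 only, at -3.25 in 2D and 1.28 in 3D, at least 32.7-fold higher without a call (adjusted p = 0.0819). Pklr, the liver pyruvate kinase, gave 3.67 and 5.27, whereas Fbp1, an enzyme of gluconeogenesis, gave -6.46 and -3.81. In all, 4 genes were at least 2-fold higher (14.3%) and 4 at least 2-fold lower (14.3%) in both cultures. In bile acid and sterol synthesis, Cyp7b1 was the only gene of 39 called. This oxysterol hydroxylase of the alternative pathway stood at -2.13 in 2D and 0.38 in 3D in iHep-1 and was above background on neither iHep-2 array, at least 32.4-fold lower (adjusted p = 0.0443). Cyp7a1, the rate-limiting enzyme of the classical pathway, was above background in 3D alone in both derivations, at 0.91 in iHep-1 and 2.08 in iHep-2. Cyp8b1, which sets cholic acid synthesis, gave -4.41 and -1.79, with the 2D array of iHep-2 not above background, and Cyp39a1, another oxysterol hydroxylase, 1.87 and 2.64. Of 62 genes of lipid metabolism, 1 was called higher and 0 lower, while 15 were higher and 21 lower in both cultures. By 2-fold or more these were 5 (8.06%) and 2 (3.23%), against 5.12% and 5.74% of all genes. Cd36, a fatty acid receptor, gave 6.64 and 2.37, and Bdh1 and Cyp4a14 gave -1.58 and -1.54 and -2.28 and -3.70, none of them called. The 2D array of iHep-2 was not above background for Cyp4a14.

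**Figure D2:**
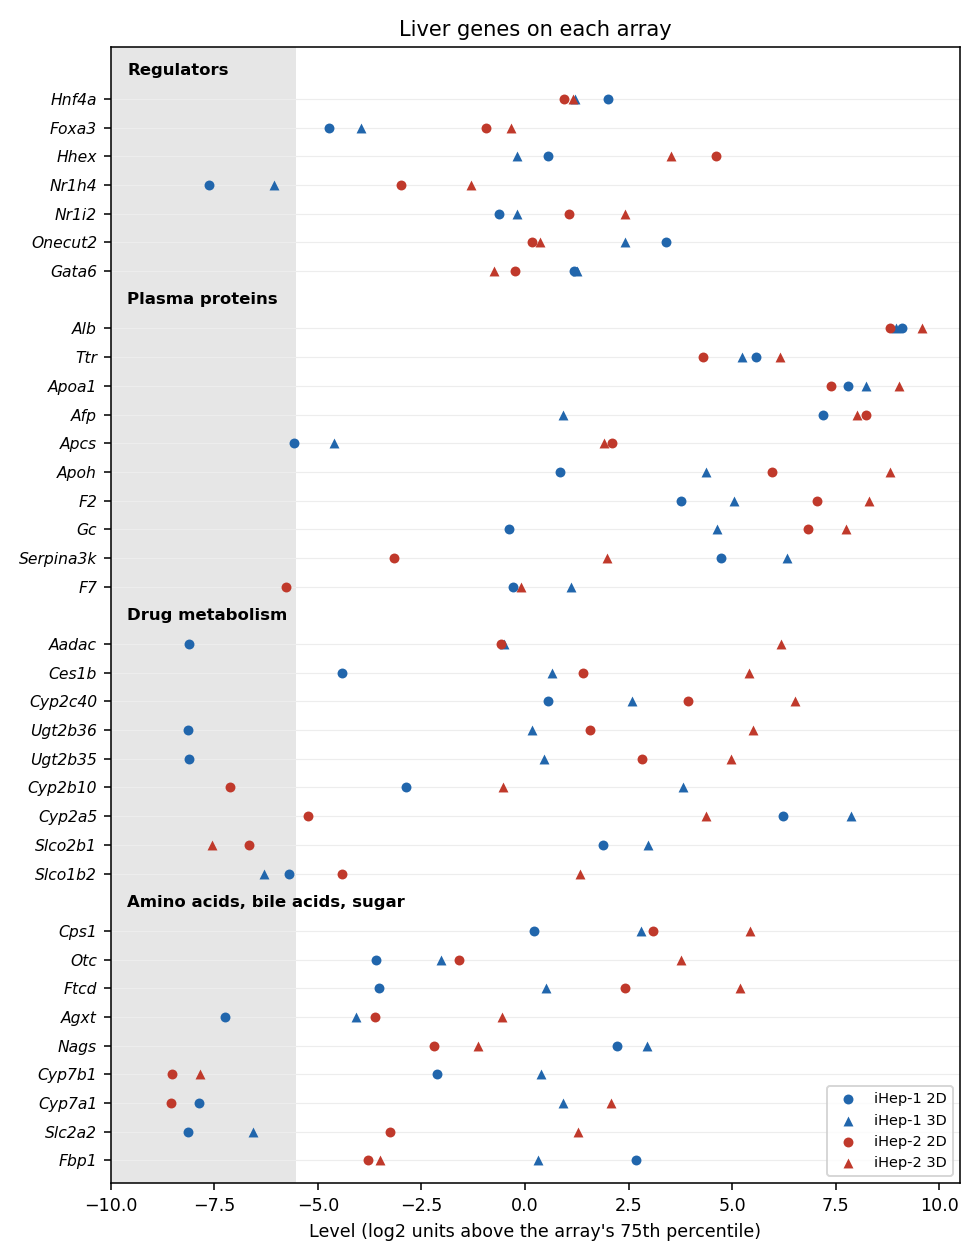
Level of each named liver gene on each of the 4 arrays (x axis, log2 units above the array's 75th percentile), with iHep-1 in blue, iHep-2 in red, 2D as circles and 3D as triangles. Levels are to be compared within a gene only. The grey band lies below -5.56, the highest of the 4 arrays' lowest signals well above background. Foxa3, Hhex and F2 show 2 separate pairs with iHep-2 higher, Nags 2 pairs with iHep-1 higher, and Alb 4 overlapping points.

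Epithelial genes differed in both directions. Krt8 and Krt18 encode the partner keratins of simple epithelia and hepatocytes, and they differed in opposite directions although their genes are neighbours, with probes at chr15:101827214-101827273 for Krt8 and chr15:101862341-101862400 for Krt18 (mm9). Krt8 stood at -1.12 in 2D and 3.58 in 3D in iHep-1, and 5.35 and 7.04 in iHep-2, 31.1-fold higher in iHep-2 (limma adjusted p = 0.117), and its second probe gave 4.998. Krt18 stood at 6.49 in 2D and 7.25 in 3D in iHep-1, and 3.92 and 3.89 in iHep-2, 7.81-fold lower (adjusted p = 0.0607). In both genes the arrays of the derivations did not overlap, and neither was called. Krt20 and Krt23, keratins of gut and of stressed or biliary epithelium, were the 2 of 16 keratins called, both higher. Krt23 stood at -3.93 in 2D and -2.31 in 3D in iHep-1, and 0.11 and 1.18 in iHep-2 (adjusted p = 0.0432) and Krt20 at -3.08 in 2D and -0.98 in 3D in iHep-1, and 0.65 and 3.801 in iHep-2 (adjusted p = 0.0478). Krt19, the bile duct keratin, gave 2.85 and 1.17, Epcam, a progenitor surface protein, 1.899 and 1.26, and Sox9, a biliary factor, 0.89 and 0.93, none of them called. Lower in iHep-2 in both cultures, also without a call, were Onecut2, given above, and Ggt1, a glutathione-cleaving enzyme of bile duct surfaces, at -5.59 and -3.35 with the 2D array of iHep-2 not above background. Of 21 biliary and progenitor genes, Krt23 alone was called. By 2-fold or more in both cultures, 5 were higher (23.8%) and 4 lower (19%), against 5.12% and 5.74% of all genes. The summed level of 7 biliary markers was 16.3 in 2D and 25.7 in 3D in iHep-1 and 47.1 and 30.6 in iHep-2, so the derivations did not overlap.

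Among 49 junction genes, Dsc2 was called higher and Cldn3 lower. By 2-fold or more in both cultures, 9 were higher (18.4%) and 8 lower (16.3%), against 5.12% and 5.74% of all genes. Cldn3, a tight junction claudin, was measured on all 4 arrays, at 3.48 in 2D and 4.46 in 3D in iHep-1, and -3.47 and -2.39 in iHep-2, 119.6-fold lower in iHep-2 (limma adjusted p = 0.0399). Dsc2, a desmosomal cadherin, was above background in iHep-2 only, at least 13.98-fold higher (adjusted p = 0.0399), and 2 further probes gave 4.59 and 4.69. Cldn10, another claudin, gave -4.63 and -2.34, and the connexins Gjb2 and Gjb5 gave 2.15 and 2.85 and 3.47 and 2.38, without a call. E-cadherin (Cdh1) stood at 3.03 in 2D and 3.69 in 3D in iHep-1, and 3.34 and 2.83 in iHep-2 and overlapped between derivations.

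Of 38 tested intestinal and gastric genes, 3 were called higher in iHep-2 (Krt20, Reg1, Cldn18) and 2 lower (Sox2, Gcg), while 13 were higher and 4 lower by 2-fold or more in both cultures. Reg1, a secreted lectin of pancreas and injured gut, stood at -8.22 in 2D and -4.14 in 3D in iHep-1, and -1.79 and 0.97 in iHep-2, with the 2D array of iHep-1 not above background (limma adjusted p = 0.0437). Reg3b, an antibacterial lectin of gut, stood at -3.403 in 2D and -0.06 in 3D in iHep-1, and 5.105 and 5.58 in iHep-2, 135-fold higher, and was not called (adjusted p = 0.068). Cldn18, the claudin of stomach and lung, and Tff2, a gastric trefoil peptide, were above background in iHep-2 only, at least 8.35-fold and at least 6.49-fold higher, with adjusted p of 0.0453 and 0.0921. Isx, an intestinal homeobox factor, was above background in iHep-1 only, at least 23.4-fold lower in iHep-2 (adjusted p = 0.0737). Gcg, the proglucagon gene, was at least 17.6-fold lower by its brighter probe (adjusted p = 0.0435), but its second probe gave 0.08, so the call rests on 1 of 2 probes. Cdx2, the master factor of intestine, stood at -0.08 in 2D and -0.51 in 3D in iHep-1, and -0.75 and -0.83 in iHep-2, with no call.

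Genes of mesenchymal identity included calls in 1 direction. Of 29 tested fibroblast identity genes, 4 were called lower (Prrx2, Zeb2, Osr1, Lox) and 0 higher by limma, with 12 and 1 at an unadjusted p under 0.05, and 11 were at least 2-fold lower in both cultures (37.9%, against 5.74% of all genes) while Cdh2 alone was at least 2-fold higher. The list's median was -0.29 in 2D and -1.45 in 3D. Over the 20 members above background on all 4 arrays, 1 of them called, the medians were 0.0389 and -0.54, so among them the median was not lower in 2D and was nearer to 0 in 3D. Zeb2, a repressor that drives mesenchymal states, stood at -1.33 in 2D and -0.800 in 3D in iHep-1 and was above background on neither iHep-2 array, at least 28.5-fold lower (limma adjusted p = 0.0403), and its 2 further probes gave -5.32 and -3.497. Osr1, a factor of intermediate mesoderm, stood at -2.72 in 2D and -2.77 in 3D in iHep-1, and -5.35 and -5.33 in iHep-2, measured on all 4 arrays (adjusted p = 0.0478). Prrx2, a limb mesenchyme factor, and Lox, which crosslinks collagen, were at least 4.06-fold and at least 2.84-fold lower. Prrx1 gave -2.69 and -1.99 over 4 probes of like direction (adjusted p = 0.0753), and the receptor Pdgfrb gave -3.597 and -5.85, with the 3D array of iHep-2 not above background.

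Other fibroblast genes did not follow. Pdgfra, a receptor of mesenchymal cells, stood at 2.15 in 2D and 2.800 in 3D in iHep-1, and 2.25 and 2.91 in iHep-2, with differences of 0.102 and 0.11. Vimentin (Vim) gave 2.24 and -0.82 and smooth muscle actin (Acta2) 0.41 and 0.22. Twist2, a dermal fibroblast factor, lay at -5.82 in 2D and -5.896 in 3D in iHep-1, and -4.82 and -5.87 in iHep-2, close to background, and Thy1 and Col1a1 were not tested because fewer than 2 arrays were above background. Of 38 matrix genes, Col5a3, a minor fibrillar collagen, was called higher (at least 2.23-fold) and Thbs2, a matricellular thrombospondin, lower, at -1.51 in 2D and -1.79 in 3D in iHep-1 and not above background on either iHep-2 array (adjusted p = 0.0403). Sparc, a collagen-binding matrix protein, gave -2.32 and -3.08 and was not called.

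Positional genes differed too. Of 22 tested Hox genes, 1 was called lower and 0 higher by limma, with 9 and 1 at an unadjusted p under 0.05, 14 were lower in both cultures and 4 higher in both, and 8 were lower by 2-fold or more in both (36.4%) and 0 higher by as much. Hoxc10, a gene of the lumbar level, stood at -2.34 in 2D and -2.599 in 3D in iHep-1 and was above background on neither iHep-2 array, at least 10.2-fold lower (limma adjusted p = 0.0452), and its second probe gave -1.195. Hoxc9 stood at 2.39 in 2D and 3.22 in 3D in iHep-1, and 0.58 and 0.89 in iHep-2 and Hoxc6 at 0.74 in 2D and 1.46 in 3D in iHep-1, and -1.09 and -0.52 in iHep-2, with adjusted p of 0.076 and 0.0692. Hoxb2, a hindbrain gene, stood at 1.85 in 2D and 2.55 in 3D in iHep-1, and -0.101 and -0.01 in iHep-2 (adjusted p = 0.0735). In each of these the iHep-1 arrays were both higher. Hoxa9, Hoxb5, Hoxb13 and Hoxc8 completed the 8. Hoxa9 and Hoxb5 gave -1.15 and -1.16 and -1.23 and -1.23, Hoxc8 gave -1.32 and -2.06 with the 3D array of iHep-2 not above background, and Hoxb13, above background on neither iHep-2 array, was at least 3.95-fold lower (adjusted p = 0.0857). The 4 Hox genes higher in both cultures were Hoxa3 (0.05 and 0.52), Hoxb6 (0.03 and 0.78, with a second probe at -1.09), Hoxb7 (2.08 and 0.58) and Hoxc5 (1.41 and 0.83). Hoxa6, Hoxa7, Hoxb3, Hoxd8 and Hoxd9 differed by -0.38 to 0.29 log2 units in either culture. Hoxa4 and Hoxb4 were lower in both by -1.46 and -0.400 and -0.96 and -0.58, while Hoxc4 and Hoxd4 gave -0.08 and 0.71 and -0.59 and 0.098. Scaled to spike-in controls, the Hox median was -0.99 in 2D and 0.28 in 3D, so the direction over the list in 3D is relative to the other genes of the array.

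Among 38 further patterning genes, Isl1 and Zic1 were called lower and 0 higher. By 2-fold or more in both cultures, 7 were lower (18.4%) and 3 higher (7.89%), against 5.74% and 5.12% of all genes. Zic1, a zinc finger factor of dorsal neural tissue, stood at 2.64 in 2D and 2.52 in 3D in iHep-1, and -0.31 and -0.38 in iHep-2, 7.598-fold lower in iHep-2 (limma adjusted p = 0.0443), and its second probe gave -2.89. Isl1, a homeobox factor of motor neurons and pancreas, was at least 4.54-fold lower. Sox2, a stem cell and foregut factor, and Pax7, a muscle progenitor factor, were above background in iHep-1 only, at least 4.22-fold and at least 7.42-fold lower in iHep-2, each with an adjusted p of 0.0399.

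**Figure D3:**
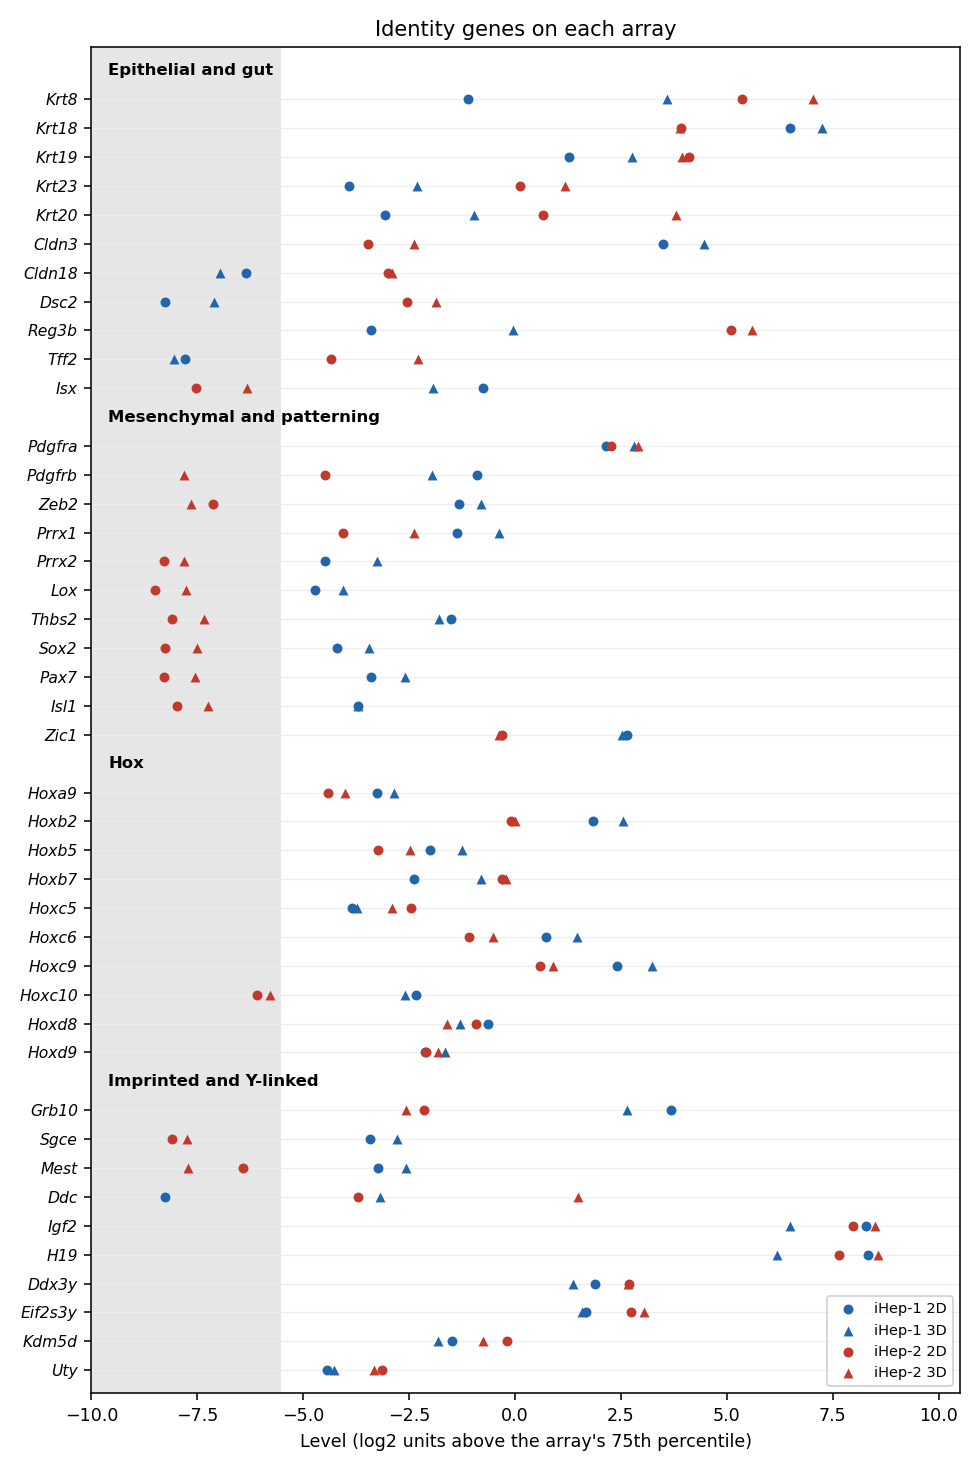
Level of each named identity gene on each of the 4 arrays (x axis, log2 units above the array's 75th percentile), coloured by derivation (blue iHep-1, red iHep-2) and shaped by culture (circles 2D, triangles 3D). Levels are to be compared within a gene only, and the grey band lies below -5.56, the highest of the arrays' lowest signals above background. Krt8 and Krt18 separate the derivations in opposite directions, Zeb2, Thbs2, Sox2 and Pax7 fall into the band in iHep-2, and Pdgfra and Hoxd9 coincide.

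Imprinted genes are read from 1 parental copy, some of them only in certain tissues, and which copies were read here was not measured. Of 52 tested, Grb10, Sgce and Slc38a4 were called lower in iHep-2, and Ddc, Cobl and Ppp1r9a higher. In both cultures 6 were at least 2-fold higher (11.5%) and 11 at least 2-fold lower (21.2%), against 5.12% and 5.74% of all genes. Grb10, an adaptor that restrains insulin signalling, stood at 3.67 in 2D and 2.63 in 3D in iHep-1, and -2.14 and -2.58 in iHep-2, 45.6-fold lower (limma adjusted p = 0.0399), with further probes from -5.58 to -2.77. Ddc and Cobl, which lie beside Grb10 in one imprinted cluster, differed the other way. Ddc, which makes dopamine and serotonin, gave 4.54 and 4.69, with the 2D array of iHep-1 not above background, and Cobl, an actin nucleator, 4.19 and 3.39, with adjusted p of 0.0399 and 0.0466. Sgce and Ppp1r9a, which share another imprinted cluster, also differed in opposite directions. Sgce, a sarcoglycan, was at least 6.96-fold lower and Ppp1r9a, a neurite actin-binding protein, gave 2.802 and 2.69. Slc38a4, an amino acid carrier of liver and placenta, was at least 5.66-fold lower, and Mest, a mesoderm transcript, gave at least 7.95-fold without a call. The fetal growth gene Igf2 and its neighbour H19 overlapped, at 8.28 in 2D and 6.48 in 3D in iHep-1, and 7.97 and 8.501 in iHep-2 for Igf2 and 8.33 in 2D and 6.19 in 3D in iHep-1, and 7.64 and 8.56 in iHep-2 for H19. Meg3 was not tested.

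The sex chromosomes gave one shared pattern. Xist, the RNA that silences an X chromosome in female cells, was not well above background on any array. The 4 Y-linked genes Ddx3y, Eif2s3y, Kdm5d and Uty were measured on all 4 arrays. Ddx3y, an RNA helicase, stood at 1.87 in 2D and 1.35 in 3D in iHep-1, and 2.69 and 2.67 in iHep-2. Eif2s3y, a translation factor, stood at 1.67 in 2D and 1.58 in 3D in iHep-1, and 2.73 and 3.04 in iHep-2. Kdm5d and Uty, both histone demethylase relatives, gave 1.31 and 1.04 and 1.31 and 0.94. All 4 were higher in iHep-2 in both cultures by 0.82 to 1.46 log2 units, without overlap, and none was called (adjusted p of 0.184, 0.137, 0.139 and 0.157). Over the 6 Y-linked genes tested, the median was 0.94 in 2D and 0.99 in 3D.

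Chromosome 18 stood apart from the other autosomes. Its 399 tested genes had a median difference of -0.46 in 2D and -0.50 in 3D, while the medians of the other 18 autosomes lay between -0.16 and 0.11 in 2D and between -0.11 and 0.21 in 3D. Of its genes 274 (68.7%) were lower in iHep-2 in both cultures, against 33.6% of all genes, and 47 (11.8%) were higher in both, against 30.0%. The shift covered the chromosome. In 9 bins of 10 Mb that held at least 20 genes (mm9 positions), every median was below 0, from -0.70 to -0.34 in 2D and from -0.75 to -0.35 in 3D. Restricted to the 337 genes above background on all 4 arrays, the medians were -0.45 and -0.49. Calls covered 3 (higher) and 4 (lower) of its 399 genes, near the shares of 0.857% and 0.985% among all tested genes. Chromosome 6 had the highest autosomal medians, 0.11 and 0.21, with 43.9% of its 831 genes higher in both cultures. Chromosome 18 was singled out after the values were seen, DNA copy number is not among the data, and the cause was not tested.

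**Figure D4:**
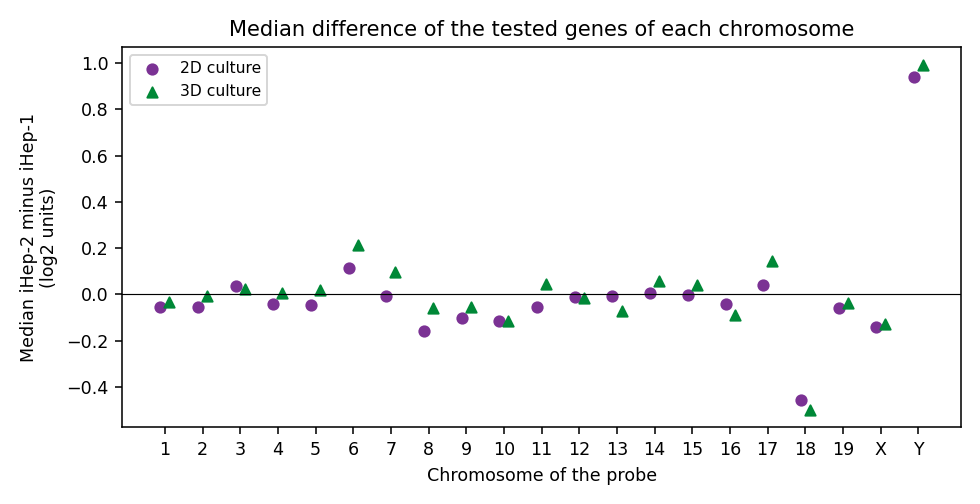
Median difference between derivations (iHep-2 minus iHep-1, log2 units) over the tested genes of each chromosome, in 2D (purple circles) and 3D (green triangles). Chromosome 18 lies near -0.46 and -0.50, apart from the other autosomes, and the 6 genes of chromosome Y near 0.94 and 0.99.

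Interferon and antigen presentation genes were mixed, with 1 of 53 called. H2-Q1, a class Ib histocompatibility gene, stood at 0.37 in 2D and -0.82 in 3D in iHep-1, and 3.87 and 3.47 in iHep-2, 14.9-fold higher in iHep-2 (limma adjusted p = 0.0452). The antiviral synthetases Oas1a and Oas2 gave 2.94 and 2.41 and 2.33 and 2.59, and B2m, the light chain of class I molecules, 1.11 and 2.04, whereas the interferon-induced Ifit2, Gbp2 and Psmb8 gave -2.003 and -2.84, -2.16 and -3.84 and -1.67 and -1.697. None of these 6 was called. Of 39 cytokine and chemokine genes limma called 0, with 2 higher and 6 lower at an unadjusted p under 0.05. In both cultures 6 were higher and 16 lower. By 2-fold or more these were 2 (5.13%) and 4 (10.3%), against 5.12% and 5.74% of all genes. Ccl20, a chemokine of epithelia, gave 5.19 and 3.76 (limma adjusted p = 0.0582), while the receptors Il17re and Il1r1 gave -1.36 and -2.27 and -1.32 and -1.14.

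Cell cycle genes did not differ in one direction. Of 53 tested, limma called 0, with 3 higher and 0 lower at an unadjusted p under 0.05, 0 were at least 2-fold different in the same direction in both cultures, and the median was 1.58 in 2D and -1.07 in 3D. Mki67, a proliferation marker, stood at 0.97 in 2D and -1.05 in 3D in iHep-1, and 2.61 and -2.66 in iHep-2. Cdkn1a, the p53 target that stops the cycle, did not separate the derivations, with differences of 0.03 and 0.04, and Cdkn2a and Cdkn2b gave -0.04 and -1.79 and 0.79 and 0.23. Among 39 YAP and TEAD targets limma called 0, with 4 higher and 2 lower at an unadjusted p under 0.05. In both cultures 10 were higher and 11 lower, 4 and 1 of them by 2-fold or more, and the median was 0.25 in 2D and -0.47 in 3D. Ccn2 gave 2.45 and 1.34, and Ankrd1 was above background in iHep-2 only, at least 51.6-fold higher (limma adjusted p = 0.147). Igfbp3 gave -1.68 and -3.43 by its brightest probe, without a call, and its other probes gave -1.10 to 0.17. Of 20 NRF2 targets limma called 0, with 4 higher and 2 lower at an unadjusted p under 0.05, and 2 were at least 2-fold higher, Slc7a11 (1.24 and 1.45) and Osgin1 (1.15 and 1.58), while Nqo1 gave -1.14 and -1.35. Nnt, a mitochondrial proton pump partly deleted in one C57BL/6 substrain, gave 1.11 ± 0.22 by its brightest probe and -0.95 to 1.28 by 3 others, so no direction is given.

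**Figure D5:**
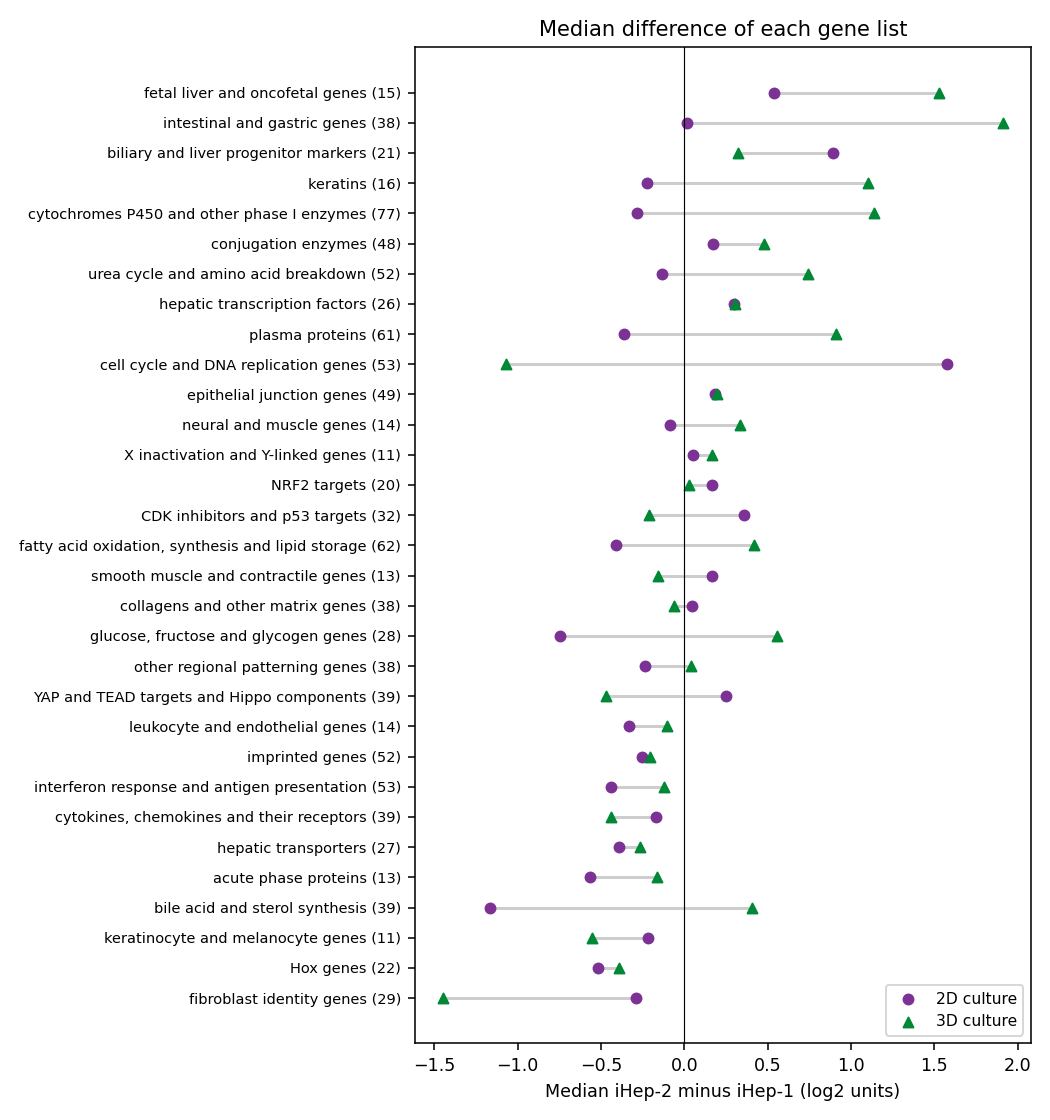
Median difference between derivations (iHep-2 minus iHep-1, log2 units) for each of 31 gene lists, in 2D (purple circles) and 3D (green triangles), with the number of tested members in brackets. Fetal liver genes lie to the right and fibroblast and Hox genes to the left in both cultures, while cell cycle, plasma protein and phase I genes lie on opposite sides of 0 in 2D and 3D.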

How the data were processed

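Total RNA of 4 samples was labelled with Cy3 and hybridised to Agilent design 014868, per the labels' protocols and file headers. The authors deposited scanner files of linear intensity values, made with Agilent Feature Extraction (9.5.1.1 per the submitters' processing notes, 10.7.1.1 per the file headers), and a series table of linear intensity values with medians of 26.3 for both iHep-1 arrays and 22.6 for both iHep-2 arrays. The table's Spearman correlation with the processed signal was at least 0.99998, so its scale is linear and its direction that of the signal, while how it was centred is not stated.

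From the deposited intensities, log2 processed signal was computed less the 75th percentile of each array's noncontrol spots. Outlier-flagged spots (72 to 85 per array) were left out and spots of a probe averaged. Probes with a signal well above background on 2 or more arrays were kept (24468 of 41174). Names came from the RefSeq table through accessions (24993 probes) or symbols (7732), or stayed as filed (8449). The probe of highest mean stood for its gene. Derivations were compared with limma 3.58.1 in R 4.3.3 (lmFit, eBayes, two-sided), with culture as a block, 1 residual degree of freedom, a prior of 2.29 and Benjamini-Hochberg adjustment over 16448 genes. The replicate numbers stand for culture, which the labels give, and deviations of same-culture arrays correlated at r = 0.542. The number of arrays limits the precision.

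Named genes were the 15 per direction with the largest smaller difference over the cultures, up to 5 members per list and direction at least 2-fold different in both, all tested Hox genes and a fixed list; others were named after their values were seen, and some that the rule names are not reported here. The members, lists and rules were chosen with earlier results of these data known. Alternatives were quantile normalization, normexp with an offset of 50, other filters, the series table, spike-in scaling, the mean over probes, no block, a trended robust prior and leaving out arrays. Promoters came from RefSeq (GRCm38.p6), another build than the mm9 of the probe positions.

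The fit was tested on simulated data for this comparison. Variances were drawn from the fitted prior, since an earlier simulation with each gene's own variance recovered none of the changed genes at the real spread. With the drawn variances small changes were still not recovered at that spread, most large changes were, and at a reduced spread nearly all of both sizes were. A few unchanged genes were called at either spread.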

Additional observations from a re-analysis of the deposited data

Results flagged for a closer look

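The median differences of 6 gene lists between iHep-2 and iHep-1 had opposite signs in 2D and 3D and lay at least 1.0 log2 unit apart, a limit set after the values were seen. Each culture holds 1 array per derivation, so whether the effect differs between cultures was not tested. Plasma protein genes had a median of -0.37 in 2D and 0.91 in 3D. Phase I genes, mostly cytochromes P450, had -0.29 and 1.14. Bile acid and sterol synthesis genes had -1.17 and 0.41. Genes of glucose, fructose and glycogen metabolism had -0.75 and 0.56, and keratins -0.22 and 1.101. Cell cycle and DNA replication genes went the other way, at 1.58 in 2D and -1.07 in 3D. The all-gene medians were -0.05 and 0.0036 in the same cultures.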

How the results depend on the processing

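The numbers called by limma, 141 higher and 162 lower in iHep-2, changed with several settings. Normexp background gave 349 and 338 (93 and 97 shared with the first result), it was 76 and 67 among genes above background on all 4 arrays, 223 and 264 with no filter on dim probes, and 278 and 291 with an intensity trend and robust prior. Without the culture block they were 21 and 33, all shared. Spike-in scaling gave 465 and 449, with an infinite prior, and shifted the all-gene median, to -0.52 (2D) and 0.68 (3D). Leaving out each array gave 0 to 0 called in both directions, in fits without the block that rest on 1 array in an arm, assumed to vary like the other arm. Quantile normalization, the series table and the mean over probes stayed within 1.5 times. Of the 2-fold counts, normexp gave 450 higher and 419 lower, the 4-array filter 538 lower, and leaving out arrays, which leaves 1 culture, 1618 to 1726 higher and 1656 to 1732 lower. The chromosome 18 median of -0.47 was -0.33 with normexp, -0.20 with no filter, where the median of all genes was 0.11, and -0.37 with spike-in scaling. Gcg turned to 0.0777 under the 4-array filter, which takes its other probe. Among 252 named genes, 2603 gene and setting pairs kept their direction and side of the threshold, 343 lost the call, 242 gained it and 1 turned. Of list medians, 184 stayed within the spread and 33 moved, 8 of them under spike-in scaling. The causes were not tested. Dim genes, with signal in 1 derivation only, have bounds and not folds.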

Other observations

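Growth factor genes outside the lists differed in both cultures; they were chosen after their values were seen. The ligands of the platelet-derived growth factor family Pdgfa, Pdgfb and Pdgfd were called higher in iHep-2. Pdgfa stood at 0.69 in 2D and 1.51 in 3D in iHep-1, and 3.55 and 4.06 in iHep-2 (limma adjusted p = 0.0496), and Pdgfb and Pdgfd, above background in iHep-2 only, were at least 11.2-fold and at least 10.98-fold higher. Bmp6, a regulator of iron balance, and its receptor Bmpr1b were above background in iHep-2 only, at least 14.9-fold and at least 23.7-fold higher. Klb, the co-receptor for Fgf21, was called lower, at 0.63 in 2D and 0.23 in 3D in iHep-1, and -2.58 and -2.55 in iHep-2 (7.98-fold, adjusted p = 0.0471). Fgf7, a mesenchymal factor for epithelium, was at least 16.9-fold lower and Areg, an EGF receptor ligand, at least 21.96-fold lower.

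Genes of innate sensing also differed in both directions. Naip5 and Nlrc4, which form an inflammasome against flagellin, were called higher in iHep-2. Naip5 stood at -4.68 in 2D and -4.899 in 3D in iHep-1, and -0.22 and 0.57 in iHep-2 (limma adjusted p = 0.0432), and Nlrc4 gave 6.21 and 4.83, with the 2D array of iHep-1 not above background. Tlr2, a receptor for bacterial lipoproteins, stood at -0.38 in 2D and -0.200 in 3D in iHep-1, and -5.32 and -4.27 in iHep-2 (22.7-fold lower, adjusted p = 0.0437), and Casp12, a relative of Casp1, at 3.44 in 2D and 2.84 in 3D in iHep-1, and -0.098 and -1.21 in iHep-2 (13.8-fold lower). Rhox5, an X-linked homeobox gene of the reproductive tract, stood at 3.88 in 2D and 3.599 in 3D in iHep-1, and -2.92 and -2.94 in iHep-2, 102-fold lower and measured on all 4 arrays (adjusted p = 0.0399). Slc40a1, the iron exporter ferroportin, stood at -5.33 in 2D and -2.005 in 3D in iHep-1, and 1.71 and 3.46 in iHep-2, 76.2-fold higher (adjusted p = 0.0452), and Hsd17b13, a lipid droplet enzyme of hepatocytes, at 0.01 in 2D and 1.35 in 3D in iHep-1, and 3.65 and 5.31 in iHep-2, 13.9-fold higher.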
